A study of Mus musculus with 8 samples.

Results

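The comparison set mutant against wild type hearts over 2 tissues at once: the genotype difference in RNA level averaged over atrioventricular (AV) cushion and ventricle, with the tissue taken out as a factor. Members were chosen by genotype label alone, and all 8 of the 8 libraries of the series entered, 4 mutant and 4 wild type. Total RNA depleted of ribosomal RNA was sequenced from C57BL/6 mouse embryos at E12.5, with 2 libraries of each genotype from each tissue. The mutants carried the genotype label NfatC1+/-; KLF2fl/fl, which means floxed Klf2 on both alleles with an altered Nfatc1 allele. The labels do not say whether that allele is a loss of 1 Nfatc1 copy or carries a recombinase, nor in which cells Klf2 is removed. The controls are labelled wild type, while the series text speaks of mice with floxed Klf2, so whether the controls carry floxed Klf2 was not settled here. Nothing states that libraries of the same group stem from different embryos or litters, and if they do not, the p-values rest on technical spread alone. Whether cushion and ventricle libraries came from the same embryos is not stated either. If they did, the 4 libraries of a genotype are not 4 independent units, as the fit over both tissues takes them to be.

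KLF2 is a zinc finger transcription factor that endothelial cells make under steady blood flow, and it is known for keeping them in a quiet, non-inflamed state. The endocardium is the endothelial lining of the heart. It covers the AV cushions, the swellings from which the valves grow, and the trabeculae of the ventricle, and it sends signals such as WNT proteins to the cells beneath it. The RNA came from whole tissue pieces, so in every result here a smaller number of cells of 1 type and less RNA per cell cannot be told apart, and a gene with 1 direction in both tissues is not assigned to a cell type.

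Library totals lay between 18955733 and 26579215 counts with 1 table row kept per gene symbol, and 1 CPM (counts relative to the library total, scaled for composition) equalled 18.7 to 25.3 reads. Cushion and ventricle matched their labels: summed cardiomyocyte markers reached 37550 to 54050 CPM in cushions and 56250 to 114700 CPM in ventricles, and summed valve and cushion matrix genes 11580 to 25840 and 3989 to 8948 CPM. The mutant cushion library of replicate 2 stood apart from the other 3 cushions on the first principal component, at -22.8 against -54.9 to -46.3. Results that rest on a single library are given with and without it.

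3 of 14940 genes tested passed (0.0201%), all lower in mutants in both tissues: Klf2 itself, Dpt, which encodes the matrix protein dermatopontin, and Wnt9b, which encodes a secreted WNT ligand. These calls come from edgeR's quasi-likelihood test with Benjamini-Hochberg (BH) adjustment at 0.05. No gene passed with higher levels in mutants. Before adjustment 391 genes (2.62%) had p under 0.05, 168 higher (1.12%) and 223 lower (1.49%), and 50.5% of all genes tested had a log2 difference above 0. DESeq2 called 7 higher and 7 lower genes, and limma-voom called 0 higher and the same 3 lower genes. With the replicate number as a block, the 3 calls were the same, and the genes with an unadjusted p under 0.05 went from 391 to 719 (4.81%), 285 higher (1.91%) and 434 lower (2.9%).

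The promoters of the 3 genes that passed are shown because Krüppel-like factors are known to bind CACCC boxes. Klf2 itself is the floxed gene, and whether KLF2 acts on any of these promoters was not tested. Each sequence holds the 250 bases before the RefSeq start (GRCm38.p6), read 5′ to 3′ on the gene's strand, with CACCC or its reverse complement GGGTG in capitals.
Klf2, chr8:72318812-72319061, plus strand: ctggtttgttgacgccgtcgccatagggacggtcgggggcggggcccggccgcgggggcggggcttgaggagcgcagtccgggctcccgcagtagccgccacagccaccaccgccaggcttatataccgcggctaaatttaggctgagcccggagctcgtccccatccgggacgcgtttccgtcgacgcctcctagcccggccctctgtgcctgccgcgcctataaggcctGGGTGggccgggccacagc
Dpt, chr1:164796413-164796662, plus strand: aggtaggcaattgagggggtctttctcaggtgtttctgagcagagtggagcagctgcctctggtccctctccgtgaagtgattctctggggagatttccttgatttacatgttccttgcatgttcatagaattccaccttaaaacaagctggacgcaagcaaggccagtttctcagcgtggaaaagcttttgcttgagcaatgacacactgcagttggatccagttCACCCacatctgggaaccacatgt
Wnt9b, chr11:103749822-103750071, minus strand: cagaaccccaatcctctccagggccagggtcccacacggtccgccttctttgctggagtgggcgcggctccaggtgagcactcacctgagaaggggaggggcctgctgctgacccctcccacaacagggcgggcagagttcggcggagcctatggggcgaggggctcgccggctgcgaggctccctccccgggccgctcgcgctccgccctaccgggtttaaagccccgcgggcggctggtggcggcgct
The Klf2 window held 1 match, as GGGTG near the start, the Dpt window held 1, as CACCC, and the Wnt9b window held 0. A match was present in 51.3% of 27025 RefSeq promoter windows of the same length, so these letters are common. Among the 12 lower genes named below, 9 had a window and 7 of these held a match, and among the 12 higher genes 9 had a window and 3 held one. No match says only that these letters are not in this window, and a match is not a shown binding site.

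Klf2 stood at 17.3 and 12.9 CPM in the wild type cushions and at 1.96 and 0.651 CPM in the mutant cushions. In ventricle it stood at 11.7 and 9.19 CPM in wild type and at 0.735 and 0.625 CPM in mutants. All 4 mutant libraries lay below all 4 wild type libraries, and the residual reads, 14 to 40 per mutant library, were above 0 in each. Over both tissues Klf2 fell by 3.72 ± 0.30 on the log2 scale (SE, 4 against 4 libraries; edgeR with BH adjusted p = 0.00257). The tissue values were -3.54 in cushion and -3.93 in ventricle on that scale, and their difference between the tissues, 0.38 ± 0.62, did not pass (edgeR interaction with BH adjusted p = 0.817). Nfatc1, the other gene named in the genotype label, stood at 35.9 and 22.1 CPM in wild type cushions, 24.9 and 15.2 CPM in mutant cushions, 18.5 and 7.87 CPM in wild type ventricles and 17.4 and 6.83 CPM in mutant ventricles. Its groups overlapped in both tissues, but the mutant was lower in all 4 same-numbered pairs, by log2 values of -0.53 and -0.54 in cushion and -0.09 and -0.20 in ventricle. Replicate 1 was above replicate 2 in every group, and its log2 difference of -0.33 ± 0.37 did not pass (edgeR with BH adjusted p = 0.999). With the replicate block the unadjusted p was 0.0416 and the BH adjusted p 0.996.

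Dpt, a small matrix protein that binds the proteoglycan decorin, stood at 55.0 and 41.9 CPM in wild type cushions and at 15.0 and 15.5 CPM in mutant cushions. In ventricle it was scarce, with 24 and 26 reads in wild type and 9 and 10 in mutants, or 1.28 and 1.37 against 0.368 and 0.447 CPM. The groups did not overlap in either tissue, and the log2 differences were nearly the same, -1.66 in cushion and -1.70 in ventricle. Over both tissues Dpt fell by 1.67 ± 0.15 on the log2 scale (edgeR with BH adjusted p = 0.00418). The call was lost without wild type cushion replicate 1 (edgeR with BH adjusted p = 0.0562), mutant cushion replicate 1 (0.0684) or mutant cushion replicate 2 (0.0743), with the value still between -1.83 and -1.51 over all alternatives.

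Wnt9b encodes a ligand of the WNT/beta-catenin pathway. It stood at 34.9 and 34.4 CPM in wild type cushions and at 6.96 and 6.90 CPM in mutant cushions, a gap far wider than that between replicates. In ventricle the level was low, with 53 and 21 reads in wild type and 16 and 8 in mutants, or 2.83 and 1.11 against 0.654 and 0.357 CPM. All mutant libraries of a tissue lay below its wild type libraries, and Wnt9b fell by 2.21 ± 0.26 on the log2 scale over both tissues (edgeR with BH adjusted p = 0.0313). The call was less stable than that of Klf2: leaving out any of the 4 cushion libraries, wild type ventricle replicate 1 or mutant ventricle replicate 2 ended it, with edgeR and BH adjusted p from 0.0740 to 0.525. It was also lost when genes under a mean of 1 CPM were left out (0.0512) and when the tissue differences from the fit of 4 groups were averaged (0.196). The log2 difference between the tissues was 0.03 ± 0.25 for Dpt and -0.38 ± 0.60 for Wnt9b, and neither passed (edgeR interaction with BH adjusted p = 0.967 and 0.809).

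Values beside the falls in Dpt and Wnt9b are those of the cells that could hold them. The 19 cushion mesenchyme transcription factors summed to 2099 to 3056 CPM in wild type cushions and 1985 to 2807 CPM in mutant cushions, and to 956 to 1335 and 785 to 1235 CPM in ventricles. These ranges overlapped, but the sum was lower in the mutant of all 4 same-numbered pairs, and the mean log2 CPM of the list was lower in both mutant cushions (5.32 and 4.74) than in both wild type cushions (5.57 and 5.33). The part of mesenchyme in the fall of Dpt was not tested. The 30 pan-endothelial markers summed to 2485 to 2553 CPM in wild type and 2542 to 2751 CPM in mutant cushions, and to 2492 to 2753 and 3092 to 3163 CPM in ventricles, so their sums were not lower in mutants. Taken relative to the mean of these endothelial markers in the same library, a scaling added after the data were seen, the log2 difference of Klf2 was -3.62 in cushion and -4.02 in ventricle, that of Dpt -1.67 and -1.77, and that of Wnt9b -2.33 and -1.95. In ventricle, where the markers were higher in mutants, this scaling by itself lowers every gene's value. Of the 12 lower genes named below, 12 kept separated libraries in both tissues under it, and of the 12 higher genes 10 did. Separated libraries are part of the rule that chose these genes. No share over all genes was computed under this scaling, so the counts are a description only. Gng11 and Gatm lost the separation in ventricle, where their scaled log2 differences were 0.15 and 0.16. All 12 higher genes stayed above 0 in both tissues.

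**Figure D1:**
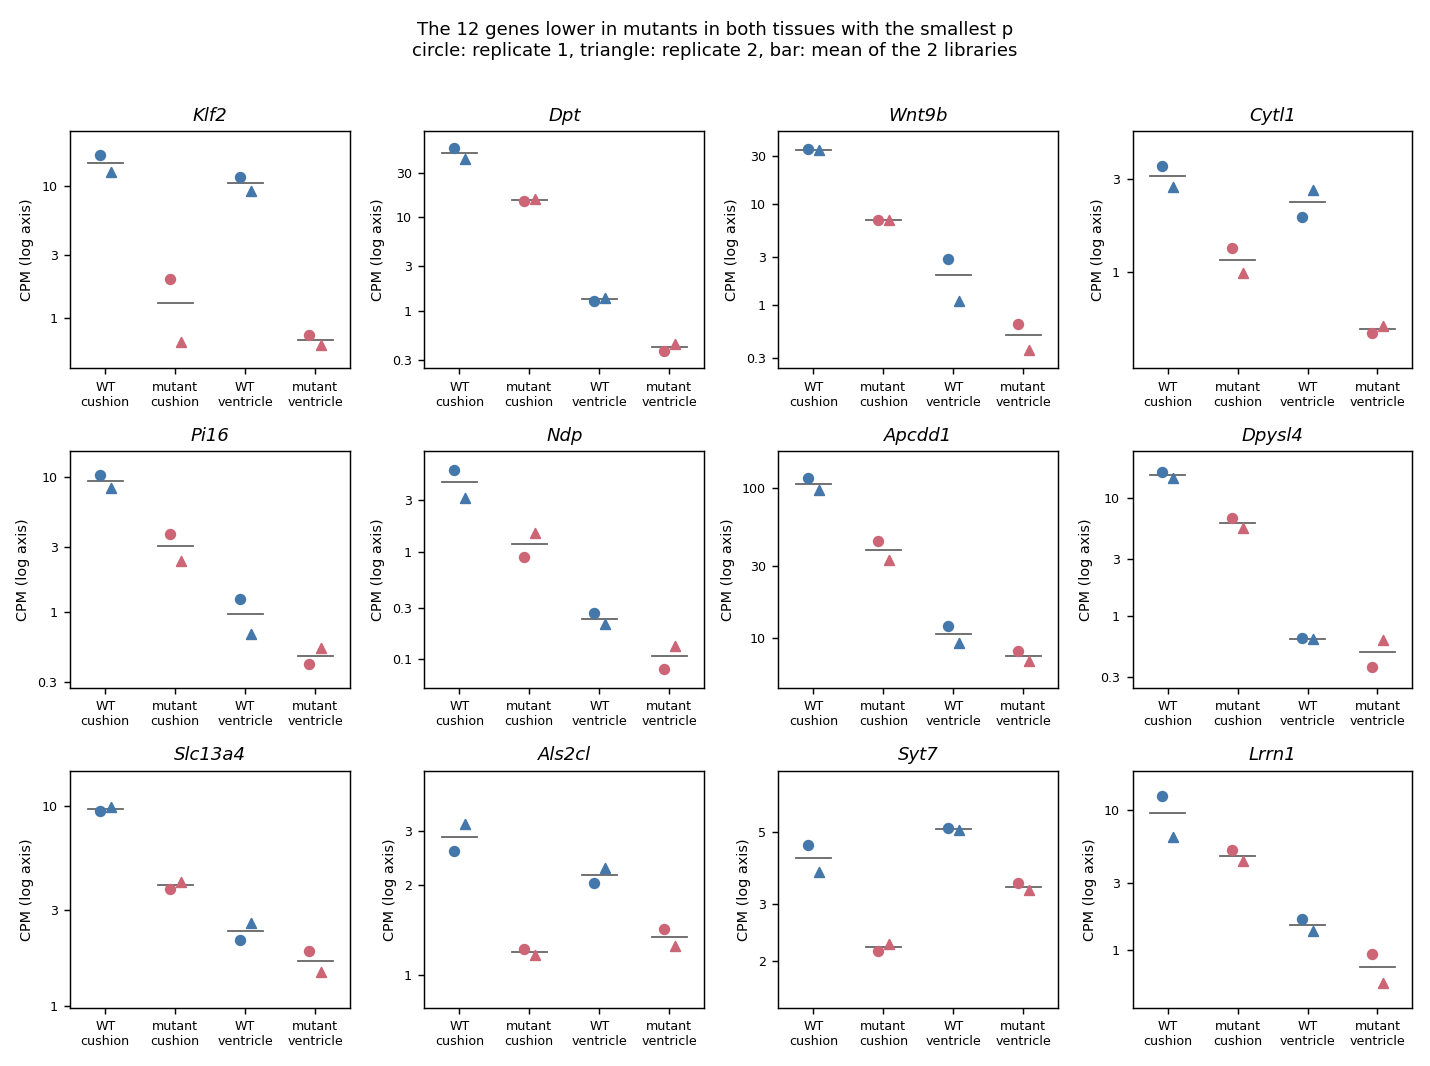
Levels in CPM (log axis) of the 12 lower genes with the smallest p, 1 panel per gene, with 1 point per library (circle for replicate 1, triangle for replicate 2) and a bar at the mean of the 2 libraries of a group. In every panel both mutant points lie below both wild type points of the same tissue; Klf2 goes from 17.3 and 12.9 to 1.96 and 0.651 CPM in cushion.

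Genes with the same sign in both tissues were a minority. The log2 difference was above 0 in both for 2400 genes (16.1%) and below 0 in both for 2813 (18.8%), against 4962 (33.2%) above 0 in cushion and below 0 in ventricle and 4763 (31.9%) the other way. Across genes, which are not independent replicates, Pearson's r between the cushion and ventricle differences was -0.10. Mutant and wild type libraries were separated in 1 direction in both tissues for 470 genes (3.15%), 241 higher (1.61%) and 229 lower (1.53%), and separated in opposite directions for 1869 genes (12.5%). Of the separated genes, 104 higher (0.696%) and 101 lower (0.676%) also had an unadjusted p under 0.05. The differences also followed the GC content of the transcripts: Spearman's rho of the difference with GC over 14745 genes was -0.61 in cushion and 0.46 in ventricle. With GC content and transcript length taken out, 46.2% of genes in place of 34.9% shared a sign, and r was 0.07.

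No gene passed the test that the genotype difference differs between the tissues (edgeR interaction, BH), with 1776 genes (11.9%) at an unadjusted p under 0.05. With the replicate block 0 passed as well and 3594 (24.1%) had such a p. The 5 smallest p-values belonged to Tkt, a pentose phosphate enzyme (-0.75 in cushion and 0.47 in ventricle, log2), Haus3, a part of the spindle complex augmin (0.63 and -0.41), Prps2, a nucleotide synthesis enzyme (0.72 and -0.24), Nkd1, a feedback inhibitor of WNT signalling (-1.15 and 0.06), and Tmem47 (0.69 and -0.40), each with a BH adjusted p of 0.415 by edgeR. Their values over both tissues lay between the unlike tissue values and ran from -0.58 to 0.24. Small interaction p is what chose these genes, so a true difference between the tissues was not shown.

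**Figure D2:**
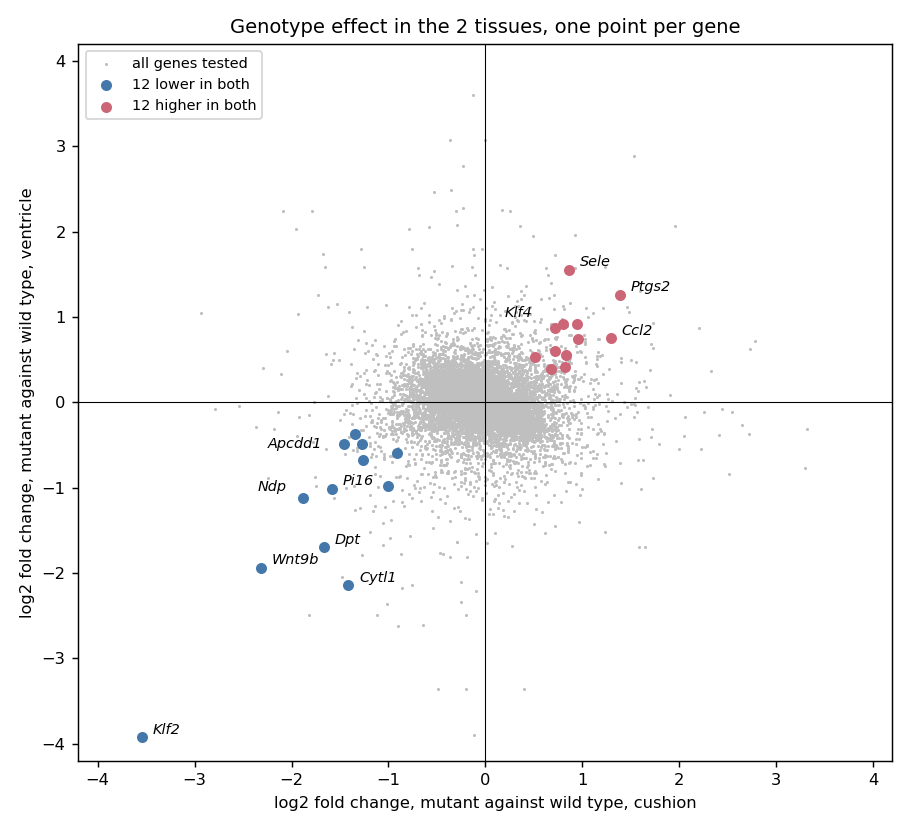
Log2 difference mutant minus wild type in cushion (x axis) against that in ventricle (y axis) for 14940 genes, 4 of which lie outside the axes at 4.2. The 12 lower and 12 higher named genes lie at the lower left and upper right, Klf2 farthest at -3.54 and -3.93, while the cloud has no upward slope (r = -0.10).

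The 24 genes described next are the 12 of smallest p in each direction among genes that share a sign, have separated libraries and average 1 CPM or more. Separation and small p are what chose them, so their values are a description. Beyond Klf2, Dpt and Wnt9b the lower genes were Cytl1, Pi16, Ndp, Apcdd1, Dpysl4, Slc13a4, Als2cl, Syt7 and Lrrn1, none of which passed (edgeR with BH adjusted p from 0.178 to 0.999). Cytl1 is a small secreted cytokine-like protein, Pi16 a secreted peptidase inhibitor, Ndp (norrin) a ligand of Frizzled-4 that activates beta-catenin, and Apcdd1 a membrane inhibitor and target of WNT signalling.

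Cytl1 stood at 3.47 and 2.73 CPM in wild type cushions, 1.32 and 0.999 CPM in mutant cushions, 1.92 and 2.64 CPM in wild type ventricles and 0.490 and 0.536 CPM in mutant ventricles. Every mutant library lay below every wild type library, over both tissues alike. The log2 difference was -1.74 ± 0.26 (edgeR with BH adjusted p = 0.178), and DESeq2 called it (BH adjusted p = 0.000182). Pi16 stood at 10.2 and 8.23 CPM against 3.78 and 2.39 CPM in cushion and at 1.23 and 0.686 CPM against 0.409 and 0.536 CPM in ventricle, where 10 to 23 reads stand behind each value. Its log2 difference was -1.40 ± 0.27 (edgeR with BH adjusted p = 0.478; DESeq2 with BH 0.00632).

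Ndp stood at 5.68 and 3.13 CPM in wild type and 0.883 and 1.48 CPM in mutant cushions. Its ventricle values rest on 2 to 5 reads per library, too few to compare; its log2 difference over both tissues was -1.74 ± 0.35 (edgeR with BH adjusted p = 0.667). Apcdd1, the most abundant of the 12 lower genes, stood at 117 and 96.9 CPM against 44.5 and 33.3 CPM in cushion and at 12 and 9.24 CPM against 8.13 and 6.97 CPM in ventricle. The groups were apart in both tissues, by -1.46 in cushion and -0.49 in ventricle on the log2 scale, and that tissue difference had an unadjusted p of 0.00818 (edgeR interaction with BH adjusted p = 0.415). Apcdd1 over both tissues was at -1.01 ± 0.21 (edgeR with BH adjusted p = 0.668; DESeq2 with BH 0.0107).

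The remaining 5 lower genes had log2 differences between -1.07 and -0.74 over both tissues. Dpysl4, a cytoskeletal protein of the collapsin response mediator family, was at 16.4 and 14.6 CPM against 6.72 and 5.47 CPM in cushion. Its ventricle groups were barely apart, with 0.625 CPM in a mutant and 0.634 CPM in a wild type library, or 14 and 12 reads. Slc13a4, a sulfate transporter, was at 9.39 and 9.89 CPM against 3.83 and 4.17 CPM in cushion and 2.14 and 2.59 CPM against 1.88 and 1.47 CPM in ventricle. Syt7, a calcium sensor of vesicle fusion, was the only gene of the 12 with a lower level in wild type cushion than in wild type ventricle, at 4.55 and 3.76 against 5.13 and 5.07 CPM, and mutants were at 2.16 to 3.47 CPM. Als2cl was at 1.17 to 1.43 CPM in mutants and 2.03 to 3.17 CPM in wild type libraries, with no overlap over the 8. Lrrn1, a leucine-rich repeat membrane protein, was at 12.6 and 6.41 CPM against 5.15 and 4.30 CPM in cushion, where wild type replicate 1 was far above replicate 2.

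The lower genes shared a tissue pattern that the rule did not name but can favour. A mean of 1 CPM can be reached through cushion alone, as by Ndp at 0.082 to 0.267 CPM in ventricle. The part of the rule in the pattern was not tested. In wild type hearts 11 of the 12 were higher in cushion than in ventricle, with a median log2 difference of 2.95 and a range from -0.30 to 5.18, while the median was 0.00 for the 12 higher genes, 6 of which were higher in cushion, and 0.01 for all genes tested. The wild type libraries enter both quantities, so the pattern is a description. Median GC content was 53.3% for the lower genes, 47.1% for the higher genes and 49.6% for all genes tested.

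The higher genes were Apold1, Klf4, Ptgs2, Gimap6, Gimap4, Sele, Ccl2, Ocln, Pparg, Gng11, Gatm and Ndrg1, none of which passed with edgeR (BH adjusted p from 0.275 to 0.914). DESeq2 called 7 of them: Apold1, Klf4, Gimap4, Gimap6, Ocln, Sele and Ccl2. Apold1, an early response gene of endothelial cells, stood at 39.2 and 34.3 CPM in wild type cushions, 62.2 and 80.0 CPM in mutant cushions, 30.3 and 42.0 CPM in wild type ventricles and 61.2 and 59.3 CPM in mutant ventricles. All 4 mutant libraries lay above all 4 wild type libraries, by 0.85 ± 0.14 on the log2 scale (edgeR with BH adjusted p = 0.275; DESeq2 with BH 0.000438). Klf4, a relative of Klf2 that flow also induces in endothelial cells, stood at 20.7 and 20.3 CPM against 36.0 and 31.3 CPM in cushion and at 10.6 and 9.19 CPM against 21.0 and 15.3 CPM in ventricle. The wild type cushion replicates were almost equal, and the log2 difference was 0.79 ± 0.13 (edgeR with BH adjusted p = 0.328; DESeq2 with BH 0.00121).

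Sele and Ccl2 also belong to the list of endothelial activation genes. Sele, E-selectin, the adhesion molecule of activated endothelial cells, stood at 4.65 and 4.08 CPM against 6.92 and 8.90 CPM in cushion and at 0.641 and 0.581 CPM against 2.0 and 1.61 CPM in ventricle. Ccl2, a chemokine that draws monocytes, stood at 2.25 and 2.61 CPM against 4.61 and 7.34 CPM in cushion and at 2.35 and 2.48 CPM against 4.25 and 3.88 CPM in ventricle. For Ccl2 the 4 wild type libraries of both tissues lay close together and all mutants lay above them. Ptgs2, the inducible prostaglandin synthase, stood at 1.13 and 0.989 CPM against 2.89 and 2.65 CPM in cushion and at 0.428 and 0.317 CPM, or 8 and 6 reads, against 0.776 and 1.03 CPM in ventricle. The log2 differences were 1.11 ± 0.22 for Sele, 1.03 ± 0.21 for Ccl2 and 1.34 ± 0.24 for Ptgs2 (edgeR with BH adjusted p = 0.501, 0.668 and 0.478).

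Ocln encodes occludin, a tight junction protein. It stood at 3.33 and 3.68 CPM against 5.40 and 8.12 CPM in cushion and at 3.58 and 5.65 CPM against 8.25 and 9.15 CPM in ventricle, a log2 difference of 0.93 ± 0.20. Pparg, a nuclear receptor of lipid handling cells and capillaries, stood at 1.55 to 1.64 CPM in the 4 wild type libraries and 2.39 to 3.19 CPM in the 4 mutants. These 2 ranges did not overlap, and the log2 difference was 0.86 ± 0.19 (edgeR with BH adjusted p = 0.738 for Ocln and 0.856 for Pparg). Gng11, a G protein gamma subunit, Gatm, the creatine synthesis enzyme, and Ndrg1, a hypoxia response gene, had log2 differences of 0.53, 0.61 and 0.52.

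**Figure D3:**
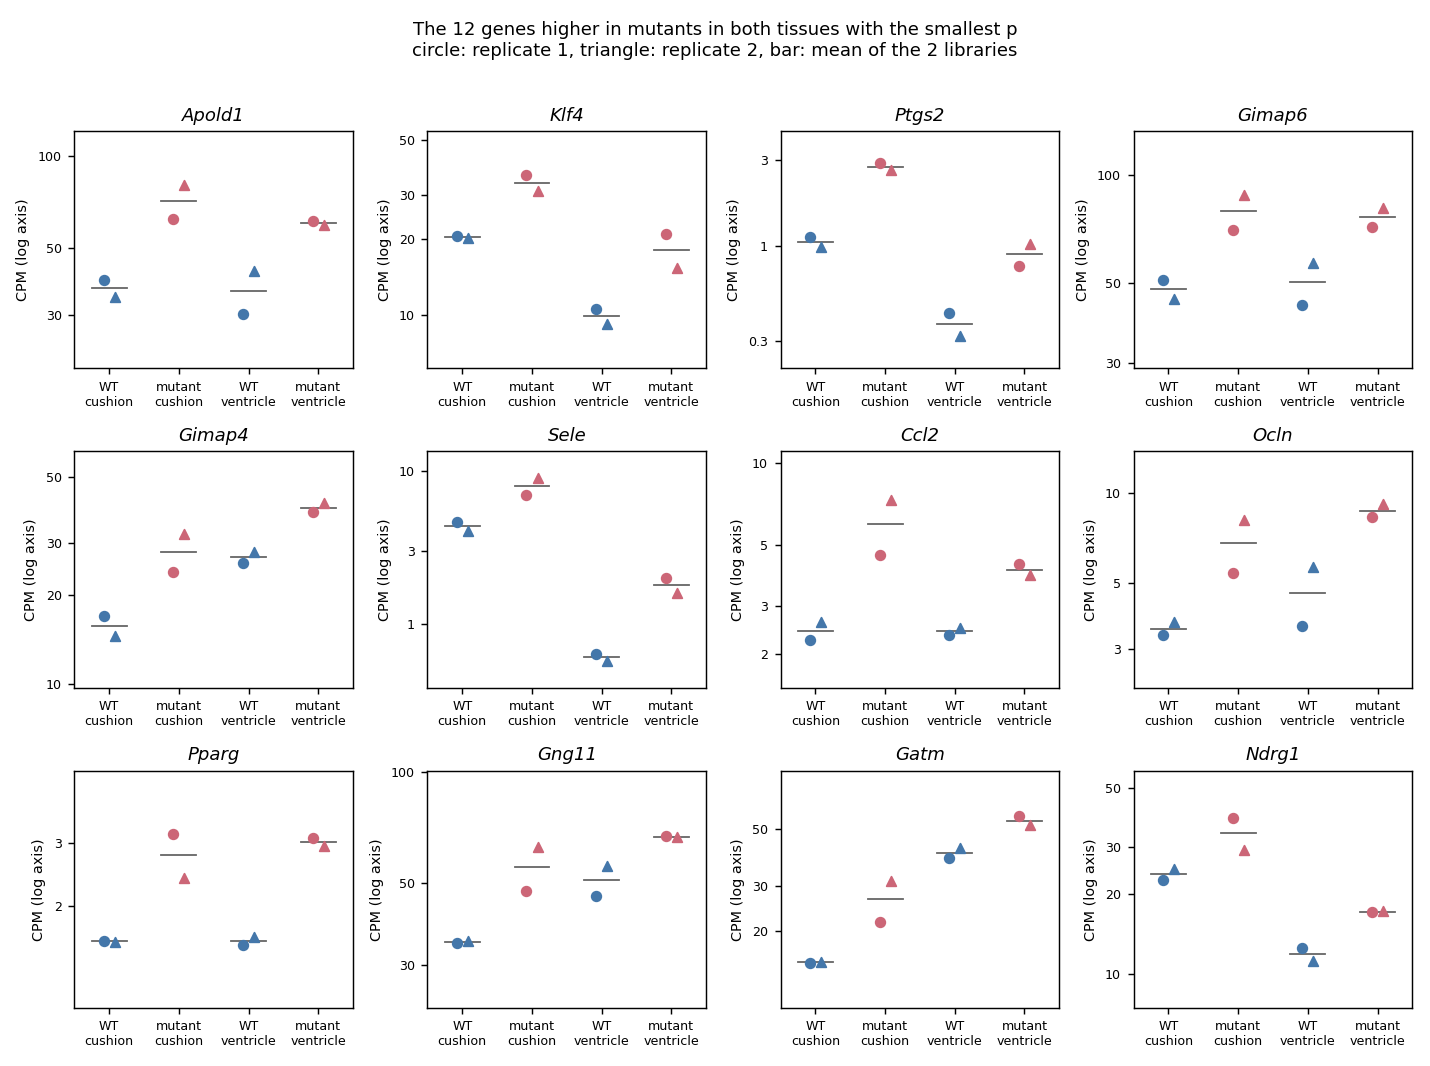
Levels in CPM (log axis) of the 12 higher genes with the smallest p, drawn as for the lower genes. Both mutant points lie above both wild type points of the same tissue in every panel; Klf4 goes from 20.7 and 20.3 to 36.0 and 31.3 CPM in cushion, and no gene of the 12 passed with edgeR.

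In the Krüppel-like factor family of 16 measured members Klf2 alone passed, with 4 members higher and 6 lower in both tissues and a median log2 difference of -0.07 against 0.00 over all genes tested. After Klf2 and Klf4 the next smallest p belonged to Klf6, at 0.21 ± 0.11, with 173 and 179 CPM in wild type against 225 and 229 CPM in mutant cushions but overlapping groups in ventricle. Of 19 genes that flow or KLF2 is known to induce in endothelial cells, 1 passed, Klf2 itself, and 2 were higher and 5 lower in both tissues. Their median was 0.04. Klf2 is 1 of the 5 lower ones. After it the smallest p belonged to Klf4, higher at 0.79 ± 0.13, and Pi16, lower at -1.40 ± 0.27. Thbd, thrombomodulin, was at -0.42 ± 0.19 (unadjusted p = 0.0463), while Nos3, the endothelial nitric oxide synthase, was at -0.61 in cushion and 0.21 in ventricle on the log2 scale.

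Of 13 measured endothelial activation and adhesion genes 8 were higher and 2 lower in both tissues, with a median of 0.24. An unadjusted p under 0.05 was found for 3, all higher, against 1.12% of all genes tested: Sele, Ccl2 and Edn1. Sele and Ccl2 are also among the higher genes named above, which were chosen for small p, so for them the count restates that choice. Edn1, the vasoconstrictor endothelin-1, was at 16.4 and 19.0 CPM against 24.7 and 27.1 CPM in cushion, with overlap in ventricle (0.36 ± 0.14). Vcam1 and Procr were not among the higher ones, at -0.08 and -0.23. All 6 measured GIMAP GTPases, small GTPases of lymphocytes and endothelium, were higher in both tissues, with a median of 0.54, 0 that passed, and 4 with libraries separated upward in both tissues, against 1.61% of all genes tested. Gimap6 stood at 51.1 and 45.2 CPM against 70.6 and 88.3 CPM in cushion and at 43.6 and 57.1 CPM against 72.0 and 81.0 CPM in ventricle. Gimap4, Gimap8 and Gimap5 were at 0.69, 0.69 and 0.42 on the log2 scale. The GIMAP genes are close relatives in 1 cluster, so reads shared between them make the values of single members uncertain.

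Leukocyte markers lay mostly above 0 beside these groups. Of 16 measured leukocyte markers 15 were higher and 0 lower in both tissues, with a median of 0.39 and 0 that passed. They summed to 202 and 235 CPM in wild type and 266 and 336 CPM in mutant cushions, and to 186 and 192 CPM against 204 and 243 CPM in ventricles. Their mean log2 CPM overlapped in both tissues, with 3.23 in a wild type and 3.17 in a mutant cushion. None was at 0: Ptprc (CD45), which defines the lineage, lay between 3.37 and 8.73 CPM. With the replicate block 9 had an unadjusted p under 0.05 and were higher, against 1.91% of all genes, in place of 3 without it, against 1.12%. Plek, Emr1 and Mrc1 led, at 0.84, 0.60 and 0.40. Leukocytes also express GIMAP genes and Ccl2, and the part of leukocytes in the values of these genes was not tested. The 14 platelet markers had 6 higher, 0 lower and 8 of opposite signs (median 0.18, -0.09 in cushion and 0.31 in ventricle). The 16 erythroid markers had 13 and 0 (median 0.36), but they were at -0.09 without mutant cushion replicate 1, and their summed level overlapped, with 1087 to 2234 CPM against 1343 to 4206 CPM in cushion.

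Interferon-stimulated genes had the largest median of the 31 lists, 0.72, with 16 of 18 higher and 0 lower in both tissues. The 2 replicate numbers differed: the median log2 difference was -0.02 and -0.27 within replicate 1 of cushion and ventricle, and 0.85 and 1.17 within replicate 2. Ifit3, an antiviral protein, stood at 2.7 and 3.6 CPM in the mutant cushion and ventricle of replicate 2 and at 0.4 to 1.0 CPM in the other 6 libraries. The higher values thus lay in 2 of 4 mutant libraries, and 0 of 18 passed.

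WNT genes lay on the lower side. Of 10 measured WNT ligands 1 passed, Wnt9b, and 1 was higher and 4 lower in both tissues, with a median of -0.16. Wnt7a had 6 and 1 reads in wild type ventricles and 0 in both mutant ventricles, and was at 1.7 and 1.5 CPM against 0.3 and 0.5 CPM in cushion. Wnt16 and Wnt4 were lower in cushion (-1.46 and -0.87 on the log2 scale) and near level in ventricle (-0.14 and -0.13). Of 17 feedback targets, genes that WNT/beta-catenin signalling switches on and that often restrain it, 8 were lower and 1 higher in both tissues with a median of -0.33, and 0 passed. 9 of the 17 had an unadjusted p under 0.05, all lower, against 1.49% of all genes tested. The tissues were unlike in size, with a median of -0.47 in cushion and -0.07 in ventricle; this difference between medians was not tested. Apcdd1 and the transcription factor Lef1 (-1.33 in cushion and -0.57 in ventricle) were lower in both tissues. So was Axin2, a scaffold of the beta-catenin destruction complex (-1.25 and -0.16). Notum, a secreted WNT deacylase (-2.11 and 0.33), was lower in cushion, while its ventricle value rests on 4 to 12 reads per library, too few to compare. Dkk1 was the 1 member higher in both tissues (0.69 and 0.92), and Sfrp2 was at 0.42 and -0.40. In cushion both rises lay in mutant replicate 1 alone. Dkk1 stood there at 0.66 and 0.32 CPM against 1.32 and 0.26 CPM, and Sfrp2 at 99.5 and 38.5 CPM against 155 and 29.2 CPM. Ventricle levels of Dkk1 were only 0.11 to 0.27 CPM. Lef1 stood at 22.4 and 19.0 CPM against 9.4 and 7.1 CPM in cushion and at 3.0 and 1.4 CPM against 1.8 and 1.2 CPM in ventricle, where the groups overlapped.

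Cushion mesenchyme genes were also on the lower side. Of 19 transcription factors 12 were lower and 1 higher in both tissues (median -0.29), 0 passed and 0 had separated libraries in both tissues, and the median went from -0.47 without mutant cushion replicate 1 to -0.11 without mutant cushion replicate 2. Msx1 and Msx2, targets of BMP signalling, and Tbx2, a repressor of chamber genes in the AV canal, were at -0.77 ± 0.22, -0.67 ± 0.24 and -0.64 ± 0.21. Of 30 valve and cushion matrix genes 1 passed, Dpt, with 10 lower and 2 higher in both tissues and a median of -0.19, which became 0.02 without wild type cushion replicate 1. Matn4, a cartilage-type matrix adaptor, was at 17.7 and 13.9 CPM against 9.7 and 6.3 CPM in cushion (-0.85 ± 0.30), while Dcn, decorin, was at 0.17 and Postn, periostin, at -0.27. The 23 BMP and TGF-beta genes had 5 higher and 9 lower in both tissues (median -0.06), with Bmp6, a BMP ligand, at -0.41 ± 0.15.

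The endothelial markers as a list were not lower in mutants. Of 30 pan-endothelial markers 13 were higher and 1 lower in both tissues, the median was 0.15, 0.01 in cushion and 0.28 in ventricle, and 0 passed. Cd34 and Pecam1, surface proteins of endothelial cells, were at 0.39 ± 0.12 and 0.31 ± 0.11. The 15 endocardial markers had 6 higher and 3 lower (median 0.13), which turned to -0.00 without mutant cushion replicate 1 and was 0.31 without mutant ventricle replicate 2. Cytl1, 1 of the 3 lower endocardial markers, had the smallest p of that list, at -1.74 ± 0.26. The 14 coronary and capillary markers had 6 higher and 2 lower (median 0.22), led by Pparg, Car4, a carbonic anhydrase of capillaries (0.60 ± 0.20), and Fabp4, a fatty acid carrier (0.72 ± 0.26). The Notch pathway was balanced, with 2 higher and 3 lower of 16, and its target Hey1 was at 0.38 ± 0.14. Its groups were separated, as for 1.61% of all genes tested, but barely in cushion. There mutants were at 23.7 and 16.67 CPM and wild types at 14.0 and 16.58 CPM. The NFAT and calcineurin list (1 higher, 6 lower of 12) and the pathway from the CCM complex and MEKK3 to Klf2 (0 higher, 4 lower of 14) held no gene with an unadjusted p under 0.05. The share over all genes tested was 2.62%, and in lists this short a count of 0 is near it. With the replicate block the NFAT list held 2, Nfatc1 (0.0416) and Nfatc4 (0.0320), both lower, against 2.9% of all genes, and the CCM list 0.

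Epicardial markers, of the outer layer of the heart, were higher in both tissues for 8 of 13 and lower for 0, with a median of 0.37. Krt19 was at 0.50 ± 0.15 and Wt1, which marks the layer, at 18.5 and 22.6 CPM against 30.5 and 30.3 CPM in cushion. The list summed to 325 and 385 CPM in wild type and 523 and 425 CPM in mutant cushions and to 484 and 501 CPM against 549 and 535 CPM in ventricles, so the sums of all mutants of a tissue lay above those of its wild types. The mean log2 CPM overlapped in cushion, with 4.46 in a wild type and 4.44 in a mutant library. The median difference was 0.72 and 0.22 within replicate 1 of cushion and ventricle and 0.05 and 0.07 within replicate 2; the part of epicardium in other results was not tested. Of 20 hypoxia and glycolysis genes 11 were higher and 0 lower in both tissues (median 0.17), led by Ndrg1, Bnip3 and P4ha1. Cardiomyocyte markers (4 higher, 7 lower of 24, median 0.01), smooth muscle and pericyte markers (5 and 2 of 13), cell cycle genes (1 and 2 of 22), respiratory chain genes (3 and 0 of 20) and ribosomal protein genes (7 and 0 of 20) had medians between 0.01 and 0.09. Neural genes were at -0.36 (1 higher, 5 lower of 12). Histone genes had medians of -0.44 in cushion and 0.25 in ventricle, and near-identical copies make them uncertain.

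Nuclear noncoding RNAs, which vary with RNA quality, were lower in both tissues for 5 of 12 and higher for 0 (median -0.10, 0.11 in cushion and -0.33 in ventricle). Malat1 stood at 5945 and 5580 CPM in wild type and 4348 and 2703 CPM in mutant ventricles, groups that did not overlap, with a log2 difference of -0.71 in ventricle (unadjusted p = 0.0363) and 0.07 in cushion. The part of RNA quality in the ventricle values of other genes was not tested. Xist, which is made from the inactive X chromosome, and the Y-linked Ddx3y were both present in all 8 libraries, at 65.7 to 477 and 71.9 to 118 CPM. Ddx3y stood at 71.9 and 75.5 CPM against 118 and 109 CPM in cushion and at 85.1 and 90.5 CPM against 101 and 102 CPM in ventricle, with mutants above wild types in both (0.42 ± 0.11, edgeR with BH adjusted p = 0.999). Tsix and Xist overlap on opposite strands, so without the strand setting their reads cannot be told apart. Xist was lower in the mutant of all 4 same-numbered pairs, by log2 values of -0.35 and -0.14 in cushion and -0.76 and -1.80 in ventricle (replicate block, unadjusted p = 0.0102). The Y-linked Uty and Kdm5d were at 0.36 ± 0.13 and 0.29 ± 0.13 (replicate block, unadjusted p = 0.00640 and 0.00684). Of the 4 Y-linked genes tested, these 3 were higher in both tissues. The remaining 1, Eif2s3y, had opposite signs in the tissues and was at -0.04 over both. The part of embryo sex in other results was not tested.

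**Figure D4:**
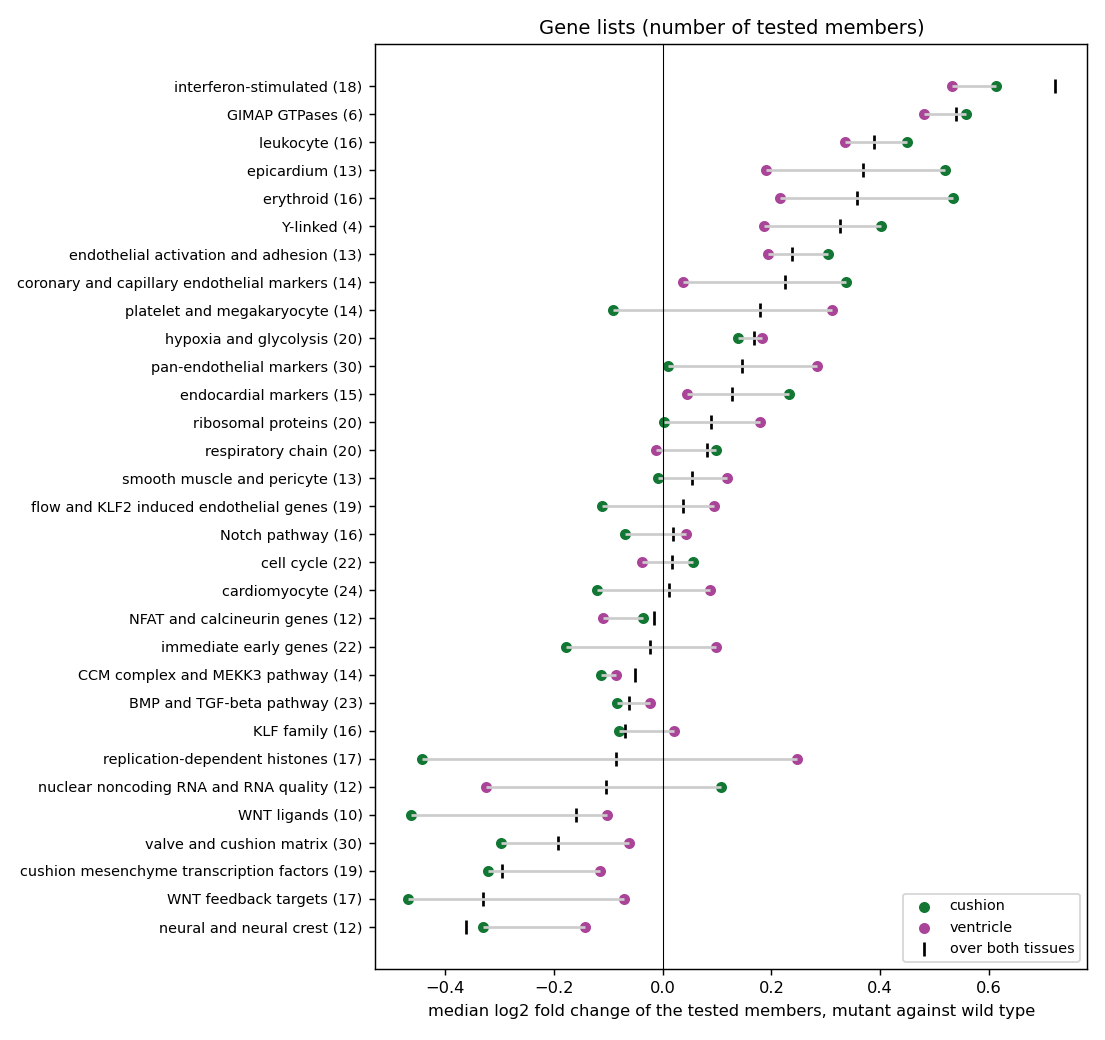
Median log2 difference mutant minus wild type of each gene list, over both tissues and in cushion and ventricle alone (x axis), with 1 row per list. Interferon-stimulated genes (0.72) and GIMAP GTPases (0.54) lie farthest to the right, and neural genes (-0.36), WNT feedback targets (-0.33) and cushion mesenchyme transcription factors (-0.29) farthest to the left.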

How the data were processed

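The authors deposited raw counts per table row for the 8 libraries, whole numbers that were used without change. Per the labels' protocols, RNA was extracted with a Qiagen micro kit and made into stranded total RNA libraries after ribosomal RNA removal. Bowtie 0.12.7 and the mouse build mm9 are named in the submitters' processing notes, while no source used here names the counting program, annotation or strand setting. The table has 28644 rows for 22869 symbols, 3705 of them on more than 1 row, and only the row of largest total entered for each symbol.

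edgeR 4.0.16 in R 4.3.3 was fitted with tissue and genotype as factors, TMM scaling, its expression filter by group (14940 symbols, 99.97% of counts), a robust quasi-likelihood fit, two-sided tests and BH adjustment over all genes. The cushion and ventricle differences and their interaction came from a fit of 4 groups. Standard errors are the log2 difference divided by the root of F. The tests were checked on simulated counts. These were drawn with no effect of the replicate number and no GC trend between genotypes, so the check does not cover either.

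The 2 libraries of a group differed by more than sampling noise (chi-square per degree of freedom 44.4 to 115). Every group has a replicate 1 and a replicate 2, with no label on what the number stands for. Deviations from the group mean correlated between same-numbered libraries in all 6 pairs of groups (Pearson r 0.341 to 0.522), so the numbers were taken as a pairing seen in the data. The main fit did not use this pairing, which entered only the fits named as having the replicate block.

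The comparison, the 31 gene lists (517 of 552 entries tested) and the rule for named genes were chosen with earlier results of these data known. The rule names Klf2, Nfatc1 and Wnt9b, the 12 genes of smallest p in each direction among separated genes that average 1 CPM or more, leaving out predicted genes and small RNAs, up to 3 members of a list by smallest p, and the 5 smallest interaction p. Other list members given beside them were named after their values were seen. Alternatives were the replicate block, the average of the 2 tissue differences, DESeq2 1.42.0, limma-voom (limma 3.58.1), size factors of DESeq2's kind, other filters, summed rows, a spline correction (5 degrees of freedom) for GC content and length of the longest GENCODE vM21 transcript (98.1% of symbols matched), and leaving out each library. Promoter windows came from RefSeq (GRCm38.p6), a build other than that of the counts, and no coordinate was used with the counts.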

Additional observations from a re-analysis of the deposited data

Results flagged for a closer look

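Immediate early genes, which cells switch on within minutes of a stimulus, had medians of opposite sign in the tissues, as many genes did: 14 of the 22 (of unlike sign in the tissues) stand beside 33.2% and 31.9% of all genes tested in the 2 opposite-sign classes, so the share is near the background. The median log2 difference mutant minus wild type of the 22 measured genes was -0.178 in cushion and 0.0987 in ventricle, and what drew attention was the mean log2 CPM of the list, with both mutants below both wild types in cushion (3.54 and 3.43 against 3.56 and 3.63) and above them in ventricle, there barely (3.13 in a mutant against 3.129 in a wild type library). The summed level did not follow in cushion, at 597 and 582 CPM in wild type and 590 and 710 CPM in mutants. The difference between the tissues was not tested. 4 of the 22 were higher and 4 lower in both tissues. Apold1, the member of smallest p, was higher in both, and Nr4a1, a nuclear receptor, was at -0.97 in cushion and 0.00 in ventricle.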

How the results depend on the processing

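Klf2 was called in 27 of 27 settings, Dpt in 22 and Wnt9b in 15, and none of these changed sign. The count of 3 genes, all lower, was the same with the replicate block, limma-voom, DESeq2's size factors, no filter, summed rows and the GC and length correction without the block, and it was 2 with the averaged tissue differences and with a mean of at least 1 CPM. DESeq2 called 14 genes, 7 higher and 7 lower. The GC and length correction with the replicate block called 10, 3 higher and 7 lower, and the replicate block with averaged tissue differences, added after seeing the data, called 31, 16 higher and 15 lower. Leaving out 1 library gave 1 to 3 calls, with 0 higher and 1 to 3 lower: 1 call each when wild type cushion replicate 1, mutant cushion replicate 1 or mutant cushion replicate 2 was left out. With the replicate block and 1 library left out, 1 to 22 genes were called, 0 to 8 higher and 1 to 13 lower: 1 without wild type cushion replicate 1 or mutant cushion replicate 1, 6 (1 higher, 5 lower) without wild type ventricle replicate 2, and 22 (8 higher, 13 lower, 1 of opposite directions) without mutant ventricle replicate 2. The lone library of a group is then assumed to vary like the others. The causes of these shifts were not tested. Genes with under 30 reads per library in ventricle, Dpt and Ndp among them, are limited there by depth, and 2 libraries per group limit the precision of all values. List medians moved beyond the spread between replicates in 10 refits and stayed within it in 331. Among the 10 were the NFAT list at -0.13 without wild type cushion replicate 2 and the coronary list at 0.32 without wild type ventricle replicate 1.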
